A study of Mus musculus with 20 samples.

Results

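The genes described here are 7 regulators of the smooth muscle phenotype, the serum response factor gene Srf, its cofactor gene Myocd (myocardin) and the Krüppel-like factor genes Klf2, Klf4, Klf5, Klf6 and Klf9. They were taken by name from the 43422 Ensembl genes measured in the abdominal aorta of each of 20 mice. The mice fell into 4 groups of 5: WT mice given saline, WT mice given Ang II, Plod1-/- mice given saline and Plod1-/- mice given Ang II, and aortas were taken on day 14. Ang II was infused at 1000 ng/kg per minute. All groups share the C57BL/6 background of the labels (C57Bl/6NCrl in the methods) and, by the labels, an age of 6 months, while the methods of the study give a younger age at pump implantation. Plod1-/- mice lack lysyl hydroxylase 1 (LH1), an enzyme of collagen cross-linking, in the whole body and from birth. The methods describe male mice. The values are FPKM, fragment counts scaled by transcript length and by the size of the library, of whole vessel segments, so every level is a sum over all cell types of the wall and of any tissue attached to it.

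In smooth muscle, SRF binds as a dimer to the CArG box, an A/T-rich DNA element, and its partners decide which genes it drives. Myocardin, found in smooth and cardiac muscle, directs SRF to contractile genes such as Acta2, Myh11 and Cnn1, while ETS-domain partners of the ELK family direct it to early response genes such as Fos and Egr1. The myocardin-related factors MRTF-A and MRTF-B, which sense the pool of free actin, direct it to cytoskeletal genes such as Vcl. KLF proteins are zinc-finger factors that bind CACCC and other GC-rich sites. KLF4 and KLF5 are known from smooth muscle cells that leave the contractile state, KLF2 from endothelial cells under flow, KLF6 from injured vessels and KLF9 as a target of glucocorticoid hormones.

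RefSeq promoter windows, taken from GRCm38.p6, were found for 5 of the 7 genes, and Klf5 and Myocd had none. The 250 bases before each start site were searched on both strands, and only exact matches were counted. The Srf and Klf2 promoters are printed because each holds the kind of element by which these factors are known to be regulated. Positions are counted back from the RefSeq start site, and each stretch stops before the first base of the annotated gene. In the Srf promoter, on the minus strand at chr17:46556176-46556312, capitals mark 1 CCGGAA (an ETS motif, from -122 to -117) and 2 CArG boxes (from -82 to -73 and from -62 to -53).
Srf: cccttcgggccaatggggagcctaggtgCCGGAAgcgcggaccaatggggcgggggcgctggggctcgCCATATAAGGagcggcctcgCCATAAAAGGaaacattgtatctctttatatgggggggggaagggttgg
In the Klf2 promoter, on the plus strand at chr8:72318922-72319032, capitals mark a MEF2 site from -118 to -109.
Klf2: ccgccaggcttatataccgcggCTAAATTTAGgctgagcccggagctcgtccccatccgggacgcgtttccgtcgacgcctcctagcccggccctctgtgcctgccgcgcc
A CArG box was present in 1.47%, CCGGAA in 12% and a MEF2 site in 2.92% of 32851 promoters. No CArG box was found in the windows of Klf2, Klf4, Klf6 or Klf9. CACCC, the KLF motif, was present in 52% of promoters and in the windows of Klf2 and Klf9. The marked motifs do not overlap each other.

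For comparison with the Srf boxes, single CArG boxes (in capitals) are shown from 3 genes that SRF is known to drive, chosen because their windows held a box outside the annotated gene: the contractile gene Myl9 on the plus strand at chr2:156775293-156775322, and the cytoskeletal genes Actg1 on the minus strand at chr11:120348566-120348595 and Vcl on the plus strand at chr14:20929161-20929190.
Myl9: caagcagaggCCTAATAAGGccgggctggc
Actg1: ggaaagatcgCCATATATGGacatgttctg
Vcl: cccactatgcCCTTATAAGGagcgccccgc
A box was present in 1 of the 11 contractile genes with a window, in 1 of 6 early response genes and in 2 of 6 cytoskeletal genes. A match is a description of the letters and was not tested for binding.

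The genotype labels held in every library: Plod1 was between 22.8 and 29.7 FPKM in WT mice and at most 0.0415 FPKM in Plod1-/- mice. The smooth muscle genes Acta2, Myh11, Tagln and Cnn1 together made up 13529 to 19978 FPKM in saline-treated mice of either genotype. Xist RNA reached 15.1 FPKM in replicate 5 of the Plod1-/- mice given saline and 7.93 FPKM in replicate 1 of the Plod1-/- mice given Ang II, although the methods describe males. Both stand with the group given by their labels, and calls of the 7 regulators that change without them are given both ways. Since only FPKM values were used, library depth is unknown. FPKM sums lay between 344207 and 437790. Among the Ang II-treated mice, WT replicate 4 and Plod1-/- replicate 1 had contractile gene sums of 23838 and 22043 FPKM, inside the range of the saline-treated mice, while the others lay between 3441 and 14870 FPKM. The brown adipocyte genes Ucp1, Cidea, Cox8b and Elovl3 summed to 544 to 4332 FPKM in Ang II-treated WT mice, 14.0 to 378 in saline-treated WT mice, 19.4 to 1255 in saline-treated and 131 to 584 in Ang II-treated Plod1-/- mice.

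In saline-treated WT mice, Klf6 had the highest level of the 7 genes, with 60.5 ± 17.1 FPKM (SD, n = 5), and Klf9 followed with 36.4 ± 7.14 FPKM. Klf4 had 25.0 ± 8.24 FPKM and Klf2 20.2 ± 11.3 FPKM, and these levels overlapped between mice. Srf had 11.3 ± 1.09 FPKM. Myocd lay below Srf in every one of these mice, with 4.50 ± 1.09 FPKM. Klf5 was the lowest, with 1.61 ± 0.762 FPKM, and reached 1 FPKM in 8 of all 20 mice. FPKM is scaled by transcript length, so these levels can be compared between genes. Neighbours in the order from Klf6 to Srf overlapped, while Srf, Myocd and Klf5 were separated from each other in this group. In the plot of levels by mouse, each gene has its own scale.

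**Figure D1:**
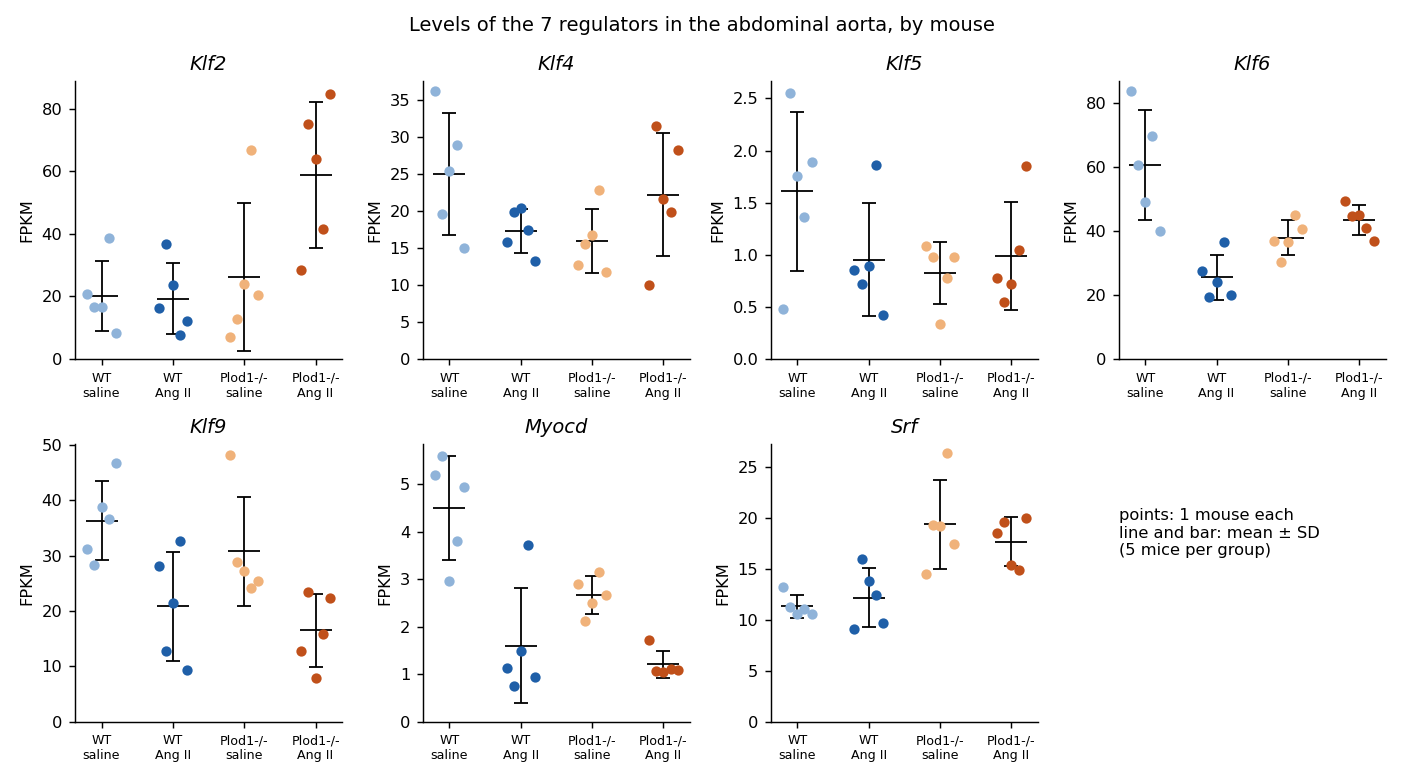
FPKM of the 7 regulators (vertical axes, linear, starting at 0) in each mouse of the 4 groups, with the mean and SD over 5 mice. Klf6 and Myocd are lower in Ang II-treated than in saline-treated WT mice, Srf is higher in Plod1-/- mice under both treatments, and Klf2 is highest in Ang II-treated Plod1-/- mice.

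Differences were fitted with limma after the transformation log2(FPKM + 1), which shrinks the changes of weakly expressed genes. Only genes that reached 1 FPKM in 5 or more of the mice in a comparison were fitted. A gene counted as a differentially expressed gene (DEG) if its Benjamini-Hochberg adjusted p was below 0.05 and its log2 fold change was beyond 1 in either direction. Between Ang II-treated and saline-treated WT mice, 2 of the 7 regulators were DEGs, Klf6 and Myocd, both lower under Ang II, where 8.66% of all genes tested were DEGs. By the adjusted p alone 3 of the 7 passed, where 38.0% of all genes did. Among Plod1-/- mice, 1 of the 6 regulators that passed the filter was a DEG between treatments (13.9% of all genes), Klf2, which was higher under Ang II, and 3 passed by the adjusted p alone (43.8%). Klf5 fell below the filter in that comparison. Between genotypes under Ang II, 1 of 6 was a DEG (11.1% of all genes), Klf2 again, and 3 passed by the adjusted p alone (31.2%). Between genotypes under saline, none of the 7 was a DEG (0.767% of all genes), and 2 passed by the adjusted p alone (6.55%), Srf higher and Myocd lower in Plod1-/- mice. The difference of the Ang II response between genotypes, fitted on all 20 mice, passed both criteria in 1 of 7, Klf6 (16.1% of all genes), and the same gene alone passed by the adjusted p (37.8%). With so few genes these shares were not compared by a test.

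**Figure D2:**
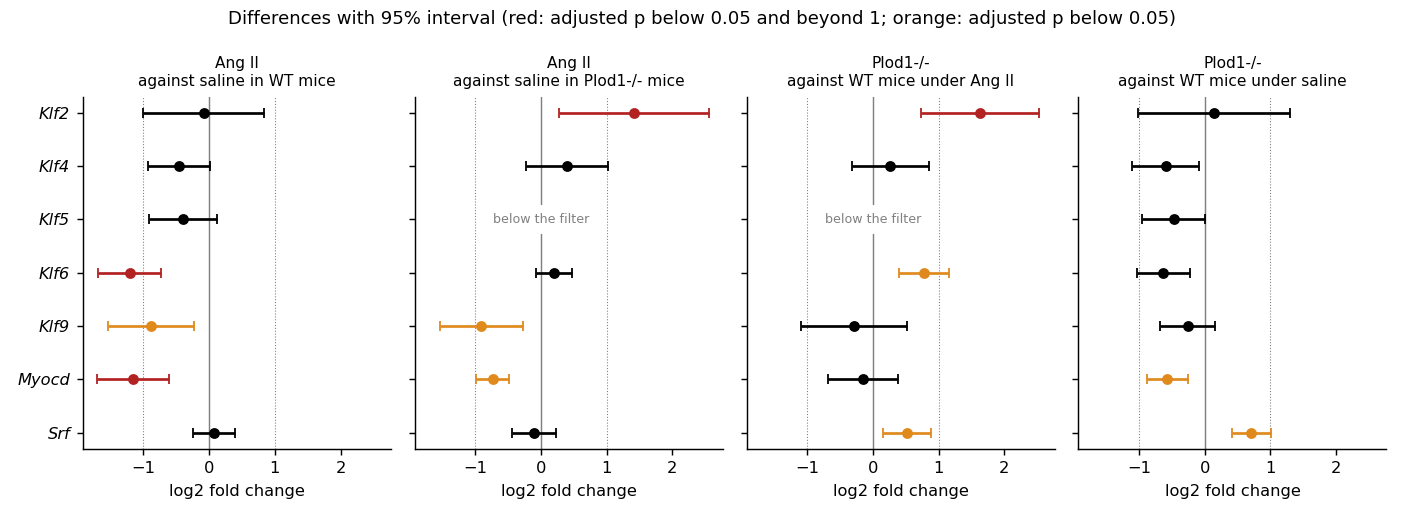
Log2 fold changes (horizontal axes, on the log2(FPKM + 1) scale) of the regulators in the comparisons between groups, with 95% intervals from limma and 5 mice per group. Klf6 and Myocd lie at -1.21 and -1.16 in the first panel, and Klf2 at 1.41 and 1.63 in the next panels.

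Srf (ENSMUSG00000015605, chr17:46548329-46556175 of GRCm38, minus strand) differed between genotypes and not detectably between treatments. In saline-treated WT mice its FPKM was 13.2, 11.2, 10.6, 11.04 and 10.6, and in saline-treated Plod1-/- mice 14.6, 19.4, 19.2, 26.5 and 17.5. Every Plod1-/- mouse lay above every WT mouse under saline, and the log2 fold change was 0.71 (SE 0.13, adjusted p = 0.0203). Under Ang II the FPKM was 9.08, 16.0, 13.8, 12.5 and 9.70 in WT mice and 18.5, 19.7, 15.4, 14.9 and 20.0 in Plod1-/- mice. These groups overlapped through WT replicate 2, and the log2 fold change was 0.52 (SE 0.17, adjusted p = 0.0356). The response to Ang II was 0.07 in WT mice (95% interval -0.25 to 0.40) and -0.11 in Plod1-/- mice (-0.45 to 0.23). The difference between these responses was -0.19 (SE 0.22, adjusted p = 0.514). None of these passes the fold criterion. Leaving out 1 mouse at a time gave adjusted p values from 0.0128 to 0.0518 for the genotypes under saline and from 0.0272 to 0.0895 under Ang II. In the other alternatives these values reached 0.0669 under saline and 0.112 under Ang II. The 5 fibroblast markers summed to 560 to 860 FPKM in saline-treated WT and 248 to 582 FPKM in saline-treated Plod1-/- mice, where Pi16 alone was a DEG (-1.13), and their part in the Srf result was not tested. Srf overlaps the long noncoding gene Gm26904 on the opposite strand, and the libraries are not described as strand-specific, so reads of this pair cannot be told apart.

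Myocd (ENSMUSG00000020542, chr11:65176561-65269989, minus strand) was lower under Ang II in both genotypes. In WT mice it was 5.20, 5.60, 2.97, 3.81 and 4.94 FPKM under saline and 1.12, 0.756, 1.49, 3.72 and 0.932 FPKM under Ang II. Replicate 4 was the only Ang II-treated WT mouse that reached the saline range. The log2 fold change was -1.16 (SE 0.25, adjusted p = 0.00701). Among Plod1-/- mice Myocd was 2.91, 2.12, 2.50, 3.15 and 2.67 FPKM under saline and 1.72, 1.07, 1.05, 1.10 and 1.10 FPKM under Ang II. These groups did not overlap, and the log2 fold change was -0.73 (SE 0.11, adjusted p = 0.000569), below the fold criterion. Under saline, Myocd was lower in Plod1-/- than in WT mice, by a log2 fold change of -0.57 (SE 0.14, adjusted p = 0.0406). In 10 fits that each left out 1 mouse, the adjusted p of that difference ran from 0.0228 to 0.0947, and it was 0.0786 without both Xist libraries. Under Ang II the genotypes differed by -0.15 (95% interval -0.68 to 0.38). The response to Ang II differed between genotypes by 0.42 (SE 0.29, adjusted p = 0.264). In bulk tissue, fewer smooth muscle cells and less Myocd RNA per cell cannot be told apart. The mice with the highest Myocd in each Ang II-treated group, WT replicate 4 and Plod1-/- replicate 1, are those with contractile gene sums in the saline range. Without WT replicate 4 the log2 fold change in WT mice was -1.39.

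Klf6 (ENSMUSG00000000078, chr13:5861482-5870394, plus strand) had the response to Ang II that differed most clearly between genotypes. In WT mice it was 83.5, 60.7, 49.1, 69.6 and 39.9 FPKM under saline and 27.5, 19.3, 24.1, 36.4 and 20.0 FPKM under Ang II. The groups did not overlap, and the log2 fold change was -1.21 (SE 0.22, adjusted p = 0.00312). Among Plod1-/- mice Klf6 was 36.8, 30.2, 36.5, 44.9 and 40.6 FPKM under saline and 49.3, 44.7, 45.0, 41.0 and 36.8 FPKM under Ang II. These groups overlapped, and the log2 fold change was 0.20 (95% interval -0.07 to 0.47). The difference between the responses was 1.41 (SE 0.26, adjusted p = 0.000659), and it stayed between 1.28 and 1.54 with each of the 20 mice left out in turn. Under Ang II every Plod1-/- mouse lay above every WT mouse, by a log2 fold change of 0.78 (SE 0.17, adjusted p = 0.00929). Under saline the mean was 37.8 FPKM in Plod1-/- and 60.5 FPKM in WT mice, with a log2 fold change of -0.63 that missed the threshold (adjusted p = 0.0628).

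Klf6 moved against markers of brown fat. All 4 brown adipocyte genes were DEGs with higher FPKM in Ang II-treated than in saline-treated WT mice (8.66% of all genes). None of the 4 was a DEG between treatments in Plod1-/- mice (13.9% of all genes). Across the 20 mice the log2 levels of Klf6 and of the brown adipocyte sum had r = -0.88, and r = -0.77 after each group's mean was removed. The Ang II-treated WT mouse with the least brown fat signal, replicate 4 with 544 FPKM, also had the highest Klf6 of its group, 36.4 FPKM. Mitochondrial transcripts made up 14.6 to 29.1% of the FPKM sum in this group and 8.37 to 14.6% in saline-treated WT mice. With mitochondrial genes left out and the rest rescaled, the log2 fold change of Klf6 in WT mice was -1.17. Adipocyte markers summed to 1027 to 3786 FPKM in Ang II-treated and 123 to 558 FPKM in saline-treated WT mice. Their sum was higher under Ang II in Plod1-/- mice too, with 855 to 6545 FPKM against 198 to 1167 FPKM under saline. Of the 6 adipocyte markers, 3 were DEGs and higher under Ang II in Plod1-/- mice (13.9% of all genes), where the Klf6 groups overlapped. In WT mice 5 of them passed the filter, and all 5 were DEGs and higher under Ang II (8.66% of all genes). In WT mice skeletal muscle markers summed to 2.65 to 257 FPKM under Ang II and 3.54 to 6.38 FPKM under saline. Of these 4 markers, 3 were DEGs and higher under Ang II in WT mice, and none was a DEG between treatments in Plod1-/- mice. The part of attached fat and muscle in the Klf6 and Myocd results was not tested.

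Klf2 (ENSMUSG00000055148, chr8:72319033-72321656, plus strand) was highest in Ang II-treated Plod1-/- mice and varied widely within groups. It was 28.3, 75.2, 64.0, 41.6 and 84.7 FPKM in these mice, and 16.3, 36.8, 23.8, 7.66 and 12.2 FPKM in Ang II-treated WT mice. Only Plod1-/- replicate 1 fell within the WT range, and the log2 fold change between genotypes was 1.63 (SE 0.41, adjusted p = 0.0139). The call was kept with each of the 10 mice left out and in all 8 other alternatives. In saline-treated Plod1-/- mice Klf2 was 7.03, 12.7, 23.9, 66.8 and 20.5 FPKM, so replicate 4 reached the Ang II range. The response in Plod1-/- mice was 1.41 (SE 0.51, adjusted p = 0.0463), a call that 8 of the 10 fits without 1 mouse lost, and that passed with the widest margin without saline replicate 4 (log2 fold change 1.84, adjusted p = 0.00642). In saline-treated WT mice Klf2 was 20.8, 16.5, 16.6, 38.7 and 8.26 FPKM, and the response to Ang II in WT mice was -0.08 (95% interval -1.01 to 0.84). The difference between the responses was 1.496 (SE 0.71, adjusted p = 0.102) and was not called, although it passed without saline-treated Plod1-/- replicate 4 (1.92, adjusted p = 0.0250).

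KLF2 is abundant in endothelial cells and monocytes, and markers of these and other blood cells are given beside it. The sum over 8 endothelial markers was 58.0 to 206 FPKM in Ang II-treated and 68.3 to 206 FPKM in saline-treated Plod1-/- mice, and 147 to 309 FPKM in Ang II-treated WT mice. Of the 8, 3 were DEGs and higher under Ang II in Plod1-/- mice (13.9% of all genes), with 7 positive and 1 negative. Between genotypes under Ang II 1 was a DEG, lower in Plod1-/- mice (11.1% of all genes), with 7 negative and 1 positive. In WT mice 4 were DEGs and higher under Ang II (8.66% of all genes), with 5 positive and 3 negative. All 7 macrophage markers were DEGs with higher FPKM in Ang II-treated Plod1-/- mice, both against saline-treated Plod1-/- and against Ang II-treated WT mice. Their sum was 638 to 3724 FPKM in Ang II-treated Plod1-/- mice, 57.4 to 210 FPKM under saline and 200.3 to 1295 FPKM in Ang II-treated WT mice. Of 5 neutrophil markers, 4 passed the filter and were DEGs in the same comparisons, with sums of 152 to 658, 1.06 to 2.43 and 5.62 to 184 FPKM in these groups, and Ly6g was listed at no more than 0.280 FPKM in Ang II-treated Plod1-/- mice. The 3 red blood cell markers were DEGs too, with a sum of 679.9 to 8120 FPKM under Ang II and 52.0 to 1319 FPKM under saline in Plod1-/- mice. The log2 levels of Klf2 and of the macrophage sum had r = 0.54 over 20 mice and r = 0.03 within groups. The part of these cells in the Klf2 result was not tested.

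Klf4 (ENSMUSG00000003032, chr4:55527143-55532466, minus strand) passed no comparison between groups. It was 36.3, 19.6, 25.4, 28.9 and 15.0 FPKM in saline-treated WT mice and 15.8, 19.9, 20.4, 17.5 and 13.2 FPKM in Ang II-treated WT mice. Among Plod1-/- mice Klf4 was 12.8, 15.6, 16.8, 22.8 and 11.8 FPKM under saline and 9.95, 31.5, 21.6, 19.9 and 28.3 FPKM under Ang II. The groups overlapped in each comparison. The response to Ang II was -0.46 in WT mice (95% interval -0.93 to 0.01, adjusted p = 0.103) and 0.40 in Plod1-/- mice (-0.23 to 1.02). The difference between the responses was 0.86 (SE 0.37, adjusted p = 0.0741). It passed both criteria without Ang II-treated Plod1-/- replicate 1, the mouse with 9.95 FPKM (1.11, adjusted p = 0.00845), and without both libraries that held Xist RNA (1.01, adjusted p = 0.0167). Under saline the genotypes differed by -0.59 (adjusted p = 0.131).

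Klf5 (ENSMUSG00000005148, chr14:99298691-99315036, plus strand) was near the limit of the filter. Its FPKM ran from 0.484 to 2.56 in saline-treated WT mice (median 1.76) and from 0.423 to 1.86 in Ang II-treated WT mice (median 0.856). Its FPKM in Plod1-/- mice ran from 0.332 to 1.08 under saline and from 0.546 to 1.85 under Ang II. All groups overlapped. The log2 fold change was -0.40 for Ang II in WT mice (adjusted p = 0.188) and -0.47 between genotypes under saline (adjusted p = 0.185). Where Klf5 missed the filter, two-sided exact permutation tests gave p = 0.603 for Ang II in Plod1-/- mice and p = 0.857 between genotypes under Ang II, where the smallest p possible is 0.00794. The difference between the responses was 0.51 (SE 0.32, adjusted p = 0.213).

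Klf9 (ENSMUSG00000033863, chr19:23141226-23168134, plus strand) was lower under Ang II in both genotypes. In WT mice it was 31.2, 28.4, 38.7, 36.7 and 46.8 FPKM under saline and 28.2, 12.8, 21.5, 32.6 and 9.43 FPKM under Ang II. Replicate 4 of the Ang II-treated mice lay within the saline range, and the log2 fold change was -0.88 (SE 0.30, adjusted p = 0.0367). Plod1-/- mice had Klf9 levels of 48.2, 28.9, 27.3, 24.2 and 25.4 FPKM under saline and 12.8, 23.4, 7.97, 15.9 and 22.4 FPKM under Ang II. These groups did not overlap, and the log2 fold change was -0.91 (SE 0.28, adjusted p = 0.0253). Neither response passes the fold criterion. The responses differed by -0.02 (95% interval -0.93 to 0.89, adjusted p = 0.974), an interval too wide to show that they were alike. With 1 mouse left out at a time, the adjusted p ran from 0.00827 to 0.0930 in WT mice and from 0.0152 to 0.0594 in Plod1-/- mice. It reached 0.102 and 0.0638 in the other alternatives, so neither response passed in every fit. Without Ang II-treated replicate 4 the response in WT mice passed the fold criterion too (-1.07, adjusted p = 0.00827). Without both Xist libraries the adjusted p in Plod1-/- mice was 0.0571. The response in Plod1-/- mice passed the fold criterion too without Ang II-treated replicate 2 (-1.05) or replicate 5 (-1.03). Between genotypes Klf9 differed by -0.26 under saline and -0.28 under Ang II, with adjusted p values of 0.402 and 0.579. The microRNA gene Mir1192 lies within Klf9 on the same strand.

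Among the contractile genes that SRF and myocardin are known to drive, every gene called between treatments was lower under Ang II, in both genotypes. All 14 passed the filter. In WT mice 4 were DEGs (8.66% of all genes), all lower. These were Itga8 (-1.24), Actg2 (-1.14), Cnn1 (-1.004) and Tagln (-1.0005), where values are log2 fold changes. The median over the 14 was -0.85, against -0.14 over all genes tested. In Plod1-/- mice 12 of the 14 were DEGs and lower, where 13.9% of all genes were DEGs. Among them were Lmod1 (-2.41), Myh11 (-2.27), Mylk (-2.09) and Itga8 (-2.01). The median over the 14 was -1.83 in these mice, against 0.05 over all genes. Acta2, which encodes smooth muscle actin, fell from 15552 ± 1940 to 5712 ± 5050 FPKM (SD, n = 5) in Plod1-/- mice, and its adjusted p was 0.012. The corresponding values in WT mice were 14043 ± 2251 and 8237 ± 3679 FPKM (log2 fold change -0.86, adjusted p = 0.039). Between genotypes under Ang II 2 were DEGs (11.1% of all genes), both lower in Plod1-/- mice, Lmod1 (-1.65) and Smtn (-1.20). A count of 2 in 14 is near that share. None was a DEG between genotypes under saline (0.767% of all genes). The difference of the responses was called in 5 (16.1% of all genes), all more negative in Plod1-/- mice, with Lmod1 (-1.88) and Smtn (-1.54) the largest. These counts depend on the pair of Ang II-treated mice that kept high contractile sums: without WT replicate 4 the count in WT mice was 9, and without Plod1-/- replicate 1 the counts between genotypes under Ang II and for the difference of the responses were 10 and 9. Without WT replicate 4 the count for the difference of the responses was 3. Tagln was listed at 1.46 to 12.2 FPKM, overlaps Pcsk7 and an antisense gene on the opposite strand, and its values are uncertain.

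The levels of Myocd and of the contractile genes were correlated across mice, with r = 0.76 between the log2 level of Myocd and that of the contractile sum over 20 mice and r = 0.59 after group means were removed. The difference of the responses pointed opposite ways: it was 0.42 for Myocd and had a median of -0.96 over the 14 contractile genes, where the former was not called. For Srf the corresponding r was -0.04 and 0.16.

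**Figure D3:**
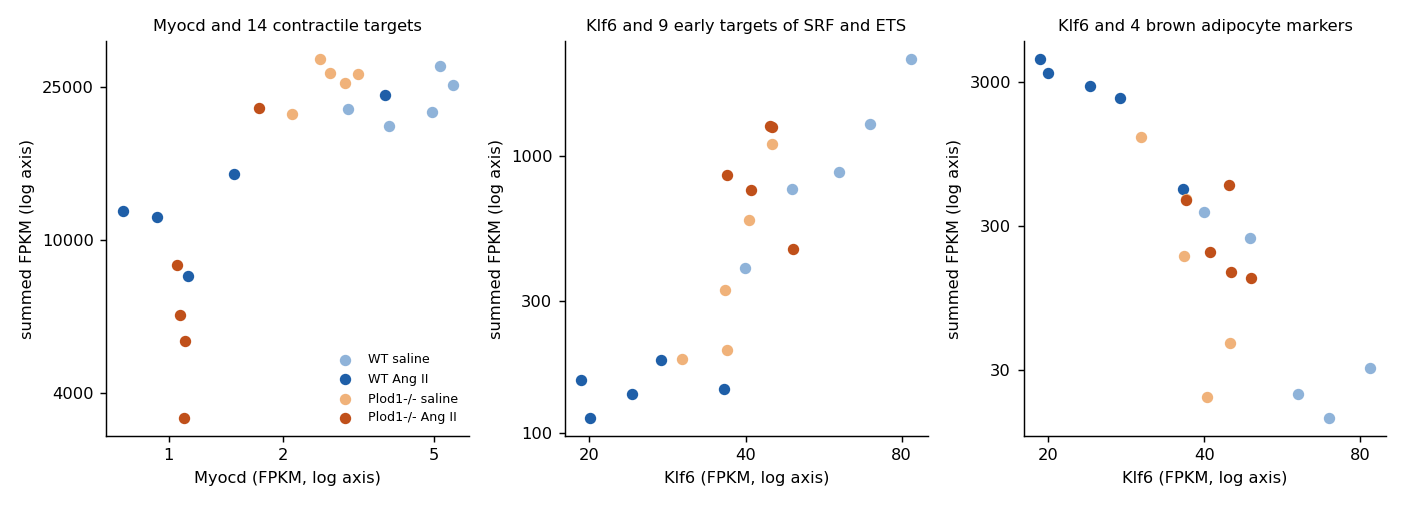
FPKM of Myocd or Klf6 in each mouse (horizontal, log axis) against the summed FPKM of a gene list in the same mouse (vertical, log axis), with 1 point for each of the 20 mice. The 4 Ang II-treated Plod1-/- mice with the lowest contractile sums share a Myocd level near 1.1 FPKM, and Klf6 is lowest in the Ang II-treated WT mice, where early targets are low and brown adipocyte markers high.

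Among the early response genes that SRF drives with ETS partners, the DEGs between treatments were lower under Ang II in WT mice and higher in Plod1-/- mice. Of 9 genes, 6 were DEGs in WT mice (8.66% of all genes), all lower under Ang II. Among them were Fos (-5.03), Fosb (-4.27), Egr1 (-3.70) and Nr4a1 (-2.74), where values are log2 fold changes. The median was -2.37 against -0.14 over all genes. In Plod1-/- mice 3 were DEGs (13.9% of all genes), all higher under Ang II: Fosb (2.57), Fos (2.45) and Egr2 (1.32). Under quantile normalization 3 were called higher and 1 lower in these mice. Egr3 fell in these mice by the adjusted p alone (-0.90, adjusted p = 0.00098). The difference of the responses was called in 8 of the 9 (16.1% of all genes), with 7.48 for Fos and 6.85 for Fosb. Under Ang II 8 were DEGs and higher in Plod1-/- than in WT mice (11.1% of all genes), with a median of 2.03 against 0.12. Under saline 1 was called (0.767% of all genes), Fosb, which was lower in Plod1-/- mice (-2.54). This count ran from 0 to 2 in the 10 fits without 1 mouse. Fos ran from 87.5 to 358 FPKM in saline-treated and from 2.41 to 8.94 FPKM in Ang II-treated WT mice, and from 6.40 to 226 and from 99.5 to 401 FPKM in Plod1-/- mice. The log2 level of the early gene sum had r = 0.85 with Klf6 over 20 mice (0.61 within groups), r = 0.59 with Klf2 (0.75 within groups) and r = 0.64 with Klf4 (0.68 within groups). Its r with Srf itself was 0.24 (0.42 within groups). Without saline-treated Plod1-/- replicate 4, whose early gene sum of 1114 FPKM was the highest of its group, 6 of the 9 were called in Plod1-/- mice in place of 3.

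Cytoskeletal genes driven by SRF with the MRTF factors lay between these lists. Of 9 genes, 4 were DEGs in WT mice (8.66% of all genes), all lower under Ang II: Ccn1 (-2.04), Vcl (-1.62), Ccn2 (-1.49) and Actg1 (-1.14). The median over the 9 was -0.92 against -0.14 over all genes. In Plod1-/- mice Tpm4 rose (1.36), while Flna (-1.68), Tgfb1i1 (-1.46) and Zyx (-1.04) fell (13.9% of all genes were DEGs). The median was 0.06 against 0.05 over all genes. The difference of the responses was called in 5 (16.1% of all genes), all more positive in Plod1-/- mice, led by Ccn1 (2.48) and Tpm4 (2.03). Without both Xist libraries 4 were called more positive and 1 more negative, and without Ang II-treated Plod1-/- replicate 1 these counts were 4 and 2. The sum of these 9 genes had r = 0.85 with Klf6 over 20 mice on log2 levels, and r = 0.75 within groups.

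**Figure D4:**
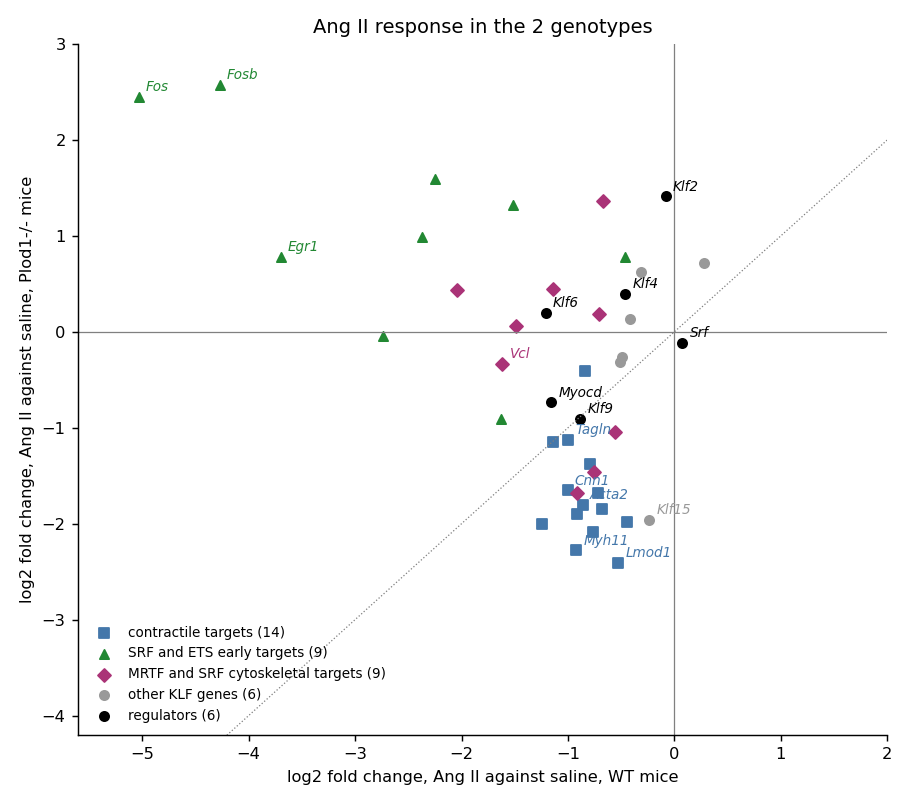
Log2 fold change between Ang II and saline in WT mice (horizontal) against that in Plod1-/- mice (vertical), both on the log2(FPKM + 1) scale, for the regulators that passed the filter in both and for 4 gene lists. Points on the dotted line have equal fold changes. Most early targets lie at the upper left, most contractile targets below the line, and the regulators nearer to the centre.

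Of the 10 genes of SRF partners, none was a DEG in WT mice and 2 were DEGs in Plod1-/- mice (8.66% and 13.9% of all genes). In Plod1-/- mice Elk3, which encodes an ETS partner of SRF, rose under Ang II (log2 fold change 1.41, adjusted p = 0.00014), from 5.68 ± 0.464 to 17.2 ± 4.44 FPKM (SD, n = 5). Elk3 was higher under Ang II in WT mice too, from 5.65 ± 0.657 to 8.37 ± 1.91 FPKM, and these groups did not overlap. It was the 1 partner gene with a positive log2 fold change in WT mice, and passed there by the adjusted p alone. Fhl2, which encodes a LIM-domain cofactor of SRF, rose in Plod1-/- mice as well (1.15, adjusted p = 0.0012). It was higher in Plod1-/- than in WT mice under Ang II (1.61) and had a difference of responses of 1.66. Mrtfa and Mrtfb passed no comparison, with log2 fold changes between -0.28 and 0.41. By the adjusted p alone 2 of the 10 were higher and 4 lower under Ang II in Plod1-/- mice (43.8% of all genes passed). In WT mice 1 was higher and 3 lower (38.0%). The lower ones in Plod1-/- mice included Mef2c (-0.97) and Mef2d (-0.66), whose products bind the MEF2 site. With quantile normalization, weights per mouse or mitochondrial genes left out, 1 partner gene was called lower in Plod1-/- mice.

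Among the 12 other KLF genes, 6 passed the filter in each comparison. Klf15, known as a repressor of fibrosis, was the only one called. It was 53.9 ± 4.98 FPKM in saline-treated and 15.8 ± 10.5 FPKM in Plod1-/- mice under Ang II (SD, n = 5, log2 fold change -1.96, adjusted p = 0.0027). In WT mice it was 48.7 ± 15.9 and 41.3 ± 12.2 FPKM (-0.23, adjusted p = 0.49). The difference of the responses was -1.73 (adjusted p = 0.012), and the genotypes differed by -1.53 under Ang II. Of all genes, 13.9% were DEGs between treatments in Plod1-/- mice and 11.1% between genotypes under Ang II, and 16.1% were called for the difference. Klf10, an early gene of TGF-beta signalling, passed by the adjusted p alone for the genotypes under Ang II (0.70) and for the difference of the responses (0.94).

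Of 4 endothelial genes regulated by KLF2 and KLF4 (Nos3, Thbd, Edn1 and Vcam1), only Edn1 was called, for the difference of the responses (log2 difference 1.14, adjusted p = 0.008). That difference was called in 16.1% of all genes. Nos3, which KLF2 is known to activate, passed no comparison, with log2 fold changes between -0.68 and -0.14 between groups. Of 7 glucocorticoid-induced genes, 3 were DEGs in WT mice, Fkbp5 (-1.29) and Sgk1 (-1.18) lower and Pdk4 (1.35) higher under Ang II (8.66% of all genes were DEGs), and none in Plod1-/- mice. Sgk1 was called for the difference of the responses (1.80) and was also lower in Plod1-/- than in WT mice under saline (-1.03), a call that was lost without both Xist libraries and with weights per mouse, and Pdk4 was lower in Plod1-/- mice under Ang II (-2.10). Zbtb16, a strongly glucocorticoid-induced gene, missed the threshold in both genotypes (-0.93 and -1.05, adjusted p = 0.066 and 0.084). Of 9 genes known to rise in modulated smooth muscle cells, 4 were DEGs and higher under Ang II in Plod1-/- mice (13.9% of all genes were DEGs): Spp1 (4.37), Timp1 (3.63), Lgals3 (2.58) and Col8a1 (1.95). Over the 9 genes, 5 log2 fold changes were positive and 4 negative, and 1 of the negative ones passed by the adjusted p alone. Without Ang II-treated Plod1-/- replicate 1, or without both Xist libraries, 1 gene of the list was called lower. Spp1 was the single one called in WT mice (3.05) and between genotypes under saline (1.81), where the call was lost without both Xist libraries. Spp1 and Lgals3 are also macrophage genes, and the macrophage sums given above rose in the same mice.

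For each regulator, the genes with the most similar levels were sought among 11971 genes by Pearson's r over the 20 mice on the log2 scale. Klf6 was closest to Adamts1, which encodes a matrix protease (r = 0.951), and to Egr1 (0.940) and Lin7c (0.938). Klf9 was closest to Ust (0.940) and Zbtb16 (0.940), which had r = 0.882 and 0.913 after group means were removed, and then to Boc (0.930). Myocd was closest to B3galnt2 (0.965), Cdh6 (0.960) and Zfp568 (0.957). Srf was closest to Foxc2, a forkhead factor gene (0.925, and 0.911 within groups), and then to Tmcc2 (0.843) and Bcl9l (0.822). Klf2 was closest to Znrf1 (0.867), Ier5 (0.867) and Lrfn4 (0.857). Klf4 and Klf5 had no gene above 0.737 and 0.794, the values of Col23a1 and Arhgap21. All values share the same libraries and the highest r of many is large by selection, so they are descriptions.

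Among the 7 regulators, the pair with the highest r over 20 mice was Klf9 and Myocd (0.72), which fell to 0.35 after group means were removed. Klf6 and Myocd had r = 0.66 (0.63 within groups). Klf2 and Klf4 had r = 0.54, and 0.71 within groups, the highest within-group value of the 21 pairs. Klf2 and Srf had r = 0.57 (0.63 within groups), while Myocd and Srf had r = -0.20 (0.14 within groups).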

How the data were processed

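RNA from abdominal aortas of 20 mice was sequenced, with group and replicate number taken from the labels. The authors aligned reads with HISAT2, and deposited 1 FPKM value for each Ensembl gene and mouse, which the paper's methods describe as normalized between libraries by cuffnorm. The submitters' processing notes list HISAT2 2.1.0, Bowtie2 2.2.3, HTSeq 0.6.0 and mm10, while the methods name another HISAT2 version. Symbols were matched for 43226 of 43422 genes, and coordinates came from GENCODE M21 (GRCm38). Depth is unknown, so no interval for counting error is given.

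FPKM values were transformed to log2(FPKM + 1) and fitted with limma 3.58.1 in R 4.3.3 (eBayes with a variance trend) on the 10 mice of each comparison, or all 20 for the difference of responses, after the filter and thresholds given above. Figures used matplotlib 3.10.9. The method was tested on simulated data. The members and gene lists were chosen with earlier results of these data known. Besides the 7 regulators, named genes are up to 4 called genes of each list with the largest change, 4 contractile genes, the 3 genes most similar to each regulator over 20 mice, and Plod1. Other genes were named after their values were seen. Replicate numbers come from the labels, and no source says that they pair mice.

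Alternatives were the adjusted p alone, a pseudocount of 0.1, no filter, replicate number as a block, quantile normalization, weights per mouse, all groups in one fit, and each mouse left out. Leaving out mitochondrial genes with rescaling, and both Xist libraries, and all list counts under alternatives, were added after the data were seen. A marker list is not reported here.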

Additional observations from a re-analysis of the deposited data

Results flagged for a closer look

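In 5 of 28 sets of 5 mice, 1 for each regulator and group, the extreme mouse lay farther from the rest than Dixon's test allows. The test was applied to FPKM without the log2 transformation, and every extreme was a high value. A rate of about 1 set in 20 by chance holds for normally distributed values and independent sets. These sets share the same 20 mice, so that rate is no firm yardstick here. Klf2 was 66.8 FPKM in saline-treated Plod1-/- replicate 4, with the next mouse at 23.9 FPKM. Klf9 was 48.2 FPKM in saline-treated Plod1-/- replicate 1, with the next at 28.9 FPKM. Myocd was 3.72 FPKM in Ang II-treated WT replicate 4, with the next at 1.49 FPKM, and 1.72 FPKM in Ang II-treated Plod1-/- replicate 1, with the next at 1.10 FPKM. Both mice named for Myocd had contractile gene sums in the saline range. Srf was 13.2 FPKM in saline-treated WT replicate 1, with the next at 11.2 FPKM.

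The response of Klf6 to Ang II differed between genotypes by 1.41 on the log2 scale (limma, adjusted p = 0.000659), with lower FPKM under Ang II in WT mice and overlapping groups in Plod1-/- mice. Klf6 was the 1 regulator of 7 whose difference of responses passed both criteria, which 16.1% of all genes tested passed. A count of 1 in 7 is near that share.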

How the results depend on the processing

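Klf6 and Myocd kept their calls between treatments in WT mice under 7 alternatives and in 10 fits without 1 mouse, Klf2 kept its call between genotypes under Ang II under 8 and 10, and Klf6 kept its call for the difference of responses under 7 and 20. With replicate number as a block, the counts of regulators called stayed at 2 in WT mice, 1 in Plod1-/- mice, 1 between genotypes under Ang II, 0 under saline and 1 for the difference of responses. Same-numbered mice did not deviate together consistently (r between -0.37 and 0.44 over the pairs), so the numbers were not taken as pairs. The highest r were 0.44 and 0.41, for replicates 2 and 3 between treatments in Plod1-/- mice. The count in Plod1-/- mice was the least stable: 3 by the adjusted p alone, 2 with a pseudocount of 0.1, and 0 with no filter, with quantile normalization, with weights per mouse or with mitochondrial genes left out, and 0 to 1 without single mice. By the adjusted p alone the count was 3 between genotypes under Ang II and 2 under saline. For the difference of responses it was 2 without both Xist libraries and 1 to 2 without single mice. The call lost in Plod1-/- mice was that of Klf2, the call gained with the smaller pseudocount was Myocd, Klf9 was called there without Ang II-treated replicate 2 or 5, and those gained for the difference of responses were Klf4 and Klf2. Among values never called, direction turned with weights per mouse for Klf2 in WT mice (0.21), for Klf9 and Myocd between genotypes under Ang II (0.10 and 0.0042) and for Klf9 in the difference of responses (0.44). Without single mice the log2 fold change of Klf2 ran from -0.35 to 0.18 in WT mice and from -0.29 to 0.48 between genotypes under saline, that of Srf from -0.023 to 0.17 in WT and from -0.20 to 0.0018 in Plod1-/- mice, that of Myocd from -0.26 to 0.093 between genotypes under Ang II, and the difference of responses of Klf9 from -0.26 to 0.20. The causes were not tested. Over all genes tested, the median difference on the log2 scale went under quantile normalization from 0.05 to -0.06 in Plod1-/- mice, from 0.12 to -0.03 between genotypes under Ang II and from 0.12 to -0.01 for the difference of responses. The number of contractile targets called ran from 1 to 9 in WT mice and from 1 to 10 between genotypes under Ang II across fits without single mice, while the early targets called between genotypes under Ang II stayed at 8. Library depth is unknown, which limits Klf5 and Myocd most, since their levels are near the filter.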
